A study of Homo sapiens with 18 samples.

Results

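The genes compared here are all 22465 genes that the arrays measured by a single gene symbol, and the value followed for each gene is how far its response to TG003 differed between 2 human plasma cell cancer lines. The response of a line is the mean of its TG003 arrays minus the mean of its DMSO arrays on the log2 scale, and the difference is the JJN3 response minus the KMS12-BM response. The choice of genes used no measured change: each gene was represented by its probe set with the highest mean over the 18 arrays of the series, and the difference itself was computed for all 22465. A positive difference therefore means a rise in JJN3 relative to KMS12-BM, which can come from a fall in KMS12-BM alone.

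KMS12-BM is a multiple myeloma line and JJN3 is labelled a plasma cell leukemia line. 12 arrays enter the comparison, in 4 groups of 3. They are KMS12-BM in DMSO, KMS12-BM in 0.4 mM TG003, JJN3 in DMSO and JJN3 in 0.4 mM TG003, each after 24 h. The other 6 arrays are of the same lines after 24 h in amiloride, at 0.1 mM in KMS12-BM and 0.4 mM in JJN3. They enter only the estimate of the spread. KMS12-BM was grown in medium with more serum than JJN3, so line and medium cannot be told apart. Each line is a single cell line. The labels do not say that replicate arrays came from separately grown cells, and a p-value here then reflects the spread between arrays, which may be technical. The arrays give RNA amounts in bulk, in which fewer cells in a state and less RNA per cell cannot be told apart.

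TG003 inhibits the CDC-like kinases CLK1, CLK2 and CLK4, and is known to have little effect on CLK3. These kinases phosphorylate the SR proteins, a family of splicing factors that gather in nuclear speckles and mark exons for the spliceosome. CLK transcripts are themselves spliced in a way that depends on CLK activity, with some of the RNA held in the nucleus with introns still in place. Plasma cells are antibody-secreting cells, and myeloma lines keep a large endoplasmic reticulum, high MYC activity and a need for steady protein and lipid synthesis.

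The arrays of a group correlated at 0.9959 to 0.9984 over all genes, and the lines in DMSO at 0.937 to 0.940. Of 10 plasma cell markers, 7 lay above the background reference in KMS12-BM and 8 in JJN3 under DMSO. This reference, 6.87, is the 95th percentile of the 92 spiked-in control probe sets, which mostly hold no target. SLAMF7 was below it in every group, and PAX5 in KMS12-BM was the single one of the 4 measured B cell markers above it. None of the measured T and NK cell (4 of 5), myeloid (5 of 5), stromal and endothelial (4 of 5) or erythroid (2 of 4) defining markers lay above it in any group. The highest erythroid one read 6.79 in JJN3 under DMSO, just under the reference. On the wider lists described below, CD68 (8.10 in KMS12-BM), VIM (11.99 in JJN3) and HBD (7.38 in JJN3) lay above it under DMSO. CCND1 read 14.87 in KMS12-BM and 6.08 in JJN3 under DMSO, whereas MAF read 4.84 and 11.16, the patterns known of these lines.

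The response to TG003 differed between the lines at 1026 genes, which is 4.57% of the 22465 tested (limma, Benjamini-Hochberg adjusted p under 0.05). The response was more positive in JJN3 at 432 genes (1.92%) and more negative at 594 (2.64%). Of the 1026, 159 differed at least 2-fold, 58 of them toward JJN3 and 101 away from it. After a further quantile normalization of the arrays the more positive share of the called genes was 55.5% and after centring each array on its median 32.6%, against 42.1% as deposited, so no excess of either direction is read from these counts. The median difference over all genes was 0.02 on the log2 scale. Among the 8313 genes above the background reference in at least 1 of the 4 groups 807 differed (9.71%), and lists made mostly of expressed genes are read against that share. Removing 1 array left 677 to 992 called genes, the lowest being 677 without the second JJN3 DMSO array and 679 without the first KMS12-BM DMSO array.

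**Figure D1:**
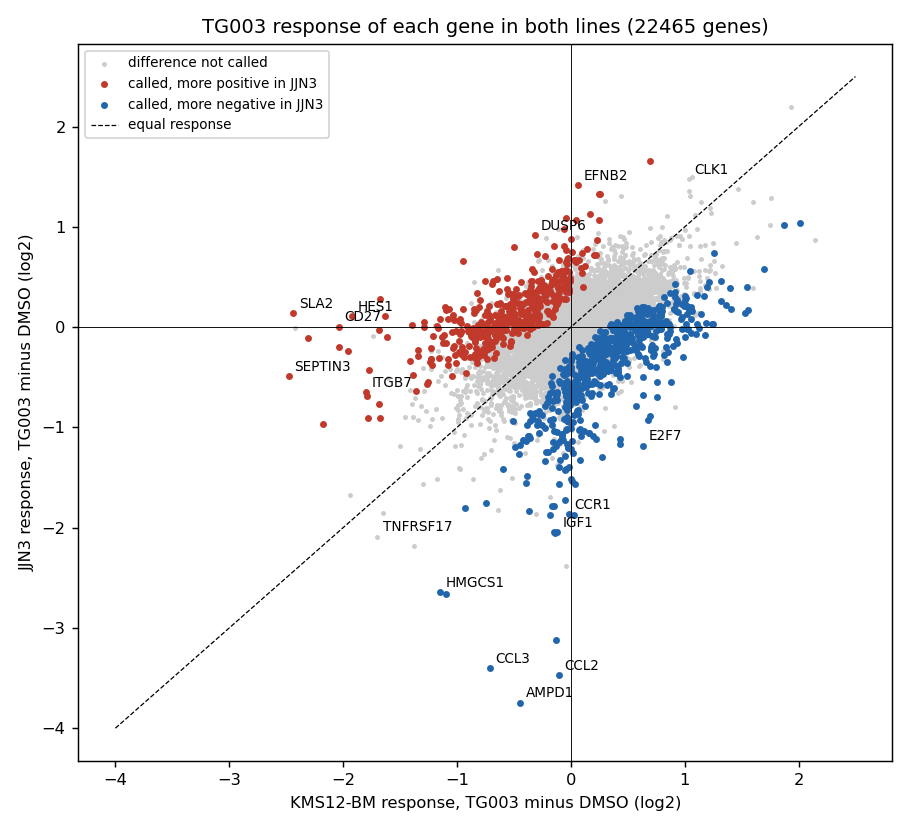
TG003 minus DMSO in KMS12-BM (x axis, log2) against the same in JJN3 (y axis, log2) for 22465 genes, with the dashed line marking equal responses. Red points (432) responded more positively in JJN3 and blue points (594) more negatively, at an adjusted p under 0.05; CCL2, CCL3 and AMPD1 lie lowest on the y axis with KMS12-BM responses of -0.10, -0.71 and -0.44.

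Taken line by line, TG003 changed 3330 genes in KMS12-BM (14.8% of those tested), 1865 upward and 1465 downward. It changed 2107 in JJN3 (9.38%), 841 upward (3.74%) and 1266 downward. Among the 8313 genes above the background reference, 16.5% rose and 14.4% fell in KMS12-BM, and 7.24% rose and 12% fell in JJN3. Counts of list members that rose or fell in a line are read against these shares. No array enters the response of both lines. The spread of each gene was estimated over the arrays of both lines together, so the calls of the lines are not independent. Without JJN3 DMSO array 1 the KMS12-BM count was 3173, and without KMS12-BM DMSO array 1 the JJN3 count was 1967. Genes called in both lines numbered 927, which is 27.8% of the KMS12-BM calls and 44.0% of the JJN3 calls, and 879 of them moved the same way. Across genes the responses correlated at r = 0.426 over all genes and r = 0.560 over the 6750 above the background reference in both lines. Genes are not independent of one another, so these coefficients are descriptions.

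A call in 1 line without a call in the other did not mean that the lines differed by the test. Of the 2403 genes called in KMS12-BM and not in JJN3, the difference itself passed the test at 563. Of the 1180 called in JJN3 and not in KMS12-BM, it passed at 322. Another 59 genes moved the same way in both lines by different amounts, 48 moved in opposite directions, and 34 differed with neither line's response called. The most frequent patterns were a fall in KMS12-BM with no call in JJN3 (286 genes), a rise in KMS12-BM with no call in JJN3 (277) and a fall in JJN3 with no call in KMS12-BM (232). A rise in JJN3 with no call in KMS12-BM was seen at 90 genes.

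**Figure D2:**
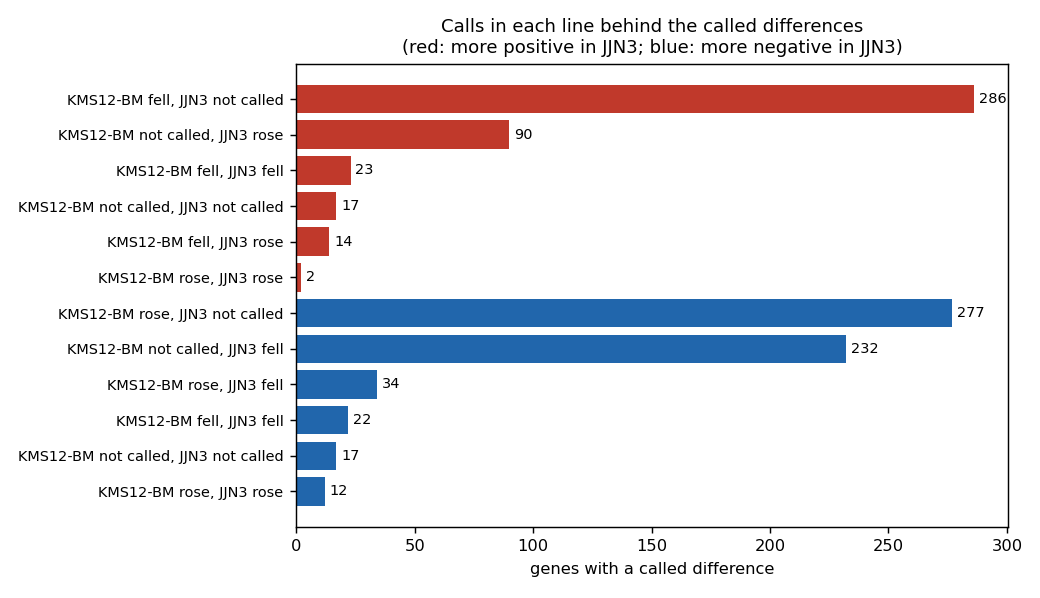
Number of genes with a called difference (x axis) for each combination of calls in the 2 lines (y axis). The bars of 286, 277 and 232 genes are the longest, and those for opposite directions hold 34 and 14 genes.

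Many of the largest differences sat at genes that only 1 line had above the background reference in DMSO. Among the 6556 genes above it in both lines 551 differed (8.40%), of which 64 differed at least 2-fold. Among the 753 above it in KMS12-BM alone 106 differed (14.1%), 65 of them in the positive direction. Among the 754 above it in JJN3 alone 116 differed (15.4%), 101 of them in the negative direction. The DMSO arrays that sorted the genes also enter the difference, so these shares and directions were partly set in advance. They are descriptions and are not read as a result. Where a line held a gene below the reference in both of its groups, its response could not be measured as a fall. The difference then rests on the other line, except where a response below the reference was itself called, as at TNFSF10 in KMS12-BM. Where a fall ended below the reference its fold is a lower bound, counted down to the reference and written "at least", and the difference between the lines then has no exact size. Genes above the reference in both lines, in DMSO or TG003, differed at 565 of 6750 (8.37%).

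The RNA of CLK1, CLK2 and CLK4, kinases that TG003 inhibits, rose in both lines. CLK1 read 7.78, 7.67 and 7.17 on the KMS12-BM DMSO arrays and 8.52, 8.70 and 8.50 after TG003, against 7.46, 7.75 and 7.61 and 9.06, 9.34 and 8.85 in JJN3. The TG003 arrays lay above the DMSO arrays in both lines without overlap. CLK1 rose by 1.04 ± 0.16 (SE) in KMS12-BM and 1.48 ± 0.16 in JJN3, a difference of 0.44 ± 0.22 (SE, adjusted p = 0.349). CLK4 rose by 1.09 and 1.12, a difference of 0.03 ± 0.19 (SE, adjusted p = 0.961), and CLK2 by 0.46 and 0.88, a difference of 0.42 ± 0.14 (SE, adjusted p = 0.107). These 3 differences missed the threshold, which does not show that the lines responded alike.

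The RNA of CLK3 differed in response between the lines. CLK3 read 9.58, 9.75 and 9.84 on the KMS12-BM DMSO arrays and 10.26, 10.47 and 10.33 after TG003, against 10.19, 10.12 and 10.25 and 10.10, 10.16 and 10.02 in JJN3. All 3 TG003 arrays lay above DMSO in KMS12-BM, while the JJN3 groups overlapped. CLK3 rose by 0.63 ± 0.09 in KMS12-BM (adjusted p = 0.000145), its JJN3 response was -0.09 ± 0.09 (adjusted p = 0.657), and the difference was -0.72 ± 0.12 (SE, adjusted p = 0.00341). It was the 1 called member of 17 measured CLK, DYRK, SRPK and HIPK kinases, a family list with 5.88% called and a median difference of 0.05.

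Splicing factor lists differed at shares no higher than the 9.71% of all genes above the background reference, and no sparing of them is read from this. Of 20 SR splicing factors 1 differed, SRSF7, which fell in KMS12-BM (-0.48 ± 0.09) with a response of -0.01 in JJN3. Its difference of 0.48 ± 0.13 (SE, adjusted p = 0.0444) lost its call without any of 8 single arrays. Of 47 core spliceosome genes 4 differed (8.51%), split evenly by direction. U2AF2 read 14.58, 14.51 and 14.39 on the KMS12-BM DMSO arrays and 13.77, 13.50 and 13.77 after TG003, against 14.76, 14.85 and 14.73 and 14.66, 14.90 and 14.86 in JJN3. U2AF2, which binds the polypyrimidine tract before the 3′ splice site, thus fell in KMS12-BM, where its groups did not overlap, with a response near 0 in JJN3. The difference was 0.84 ± 0.14 (SE, adjusted p = 0.00237). SNRPA, a protein of the U1 particle, differed the other way by -0.80 ± 0.18 (SE, adjusted p = 0.0202), with responses of 0.58 in KMS12-BM and -0.23 in JJN3, and lost its call without JJN3 DMSO array 3, JJN3 TG003 array 1 or KMS12-BM TG003 array 3. SF3B5, a subunit of the SF3b complex, differed by -0.47 ± 0.13 (SE, adjusted p = 0.0483), with neither line's own response called, and lost its call without any of 9 arrays. None of 15 hnRNP genes and none of 10 decay factors and snoRNA hosts differed at this threshold, though 5 of those 10 rose in KMS12-BM and 4 in JJN3. SMG1, a kinase of nonsense-mediated decay, had responses of 0.41 in KMS12-BM and 0.81 in JJN3 and a difference of 0.39 ± 0.19 (SE, adjusted p = 0.333).

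Genes for making ribosomes fell with TG003 in KMS12-BM and, for the most part, were not called in JJN3. The list holds MYC, which drives growth genes, and genes that transcribe ribosomal DNA, process pre-ribosomal RNA and assemble subunits in the nucleolus. Of 31 measured members, 19 fell and none rose in KMS12-BM, whereas 1 fell and 2 rose in JJN3. The difference was called at 10 of 31 (32.3%), all in the positive direction, with a median of 0.42. Single-array removals left 7 to 11 called, and centring each array on its median left 7.

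The catalytic core of RNA polymerase I was among them. POLR1B read 9.85, 9.86 and 9.68 on the KMS12-BM DMSO arrays and 8.96, 8.95 and 8.99 after TG003, against 8.92, 9.02 and 9.05 and 8.93, 9.03 and 8.98 in JJN3. POLR1B, its second largest subunit, was lower after TG003 on every KMS12-BM array, while the JJN3 groups overlapped. It fell by 0.83 in KMS12-BM, and the difference was 0.82 ± 0.09 (SE, adjusted p = 0.00011). The largest subunit, POLR1A, had responses of -0.53 in KMS12-BM and 0.13 in JJN3 and a difference of 0.66 ± 0.13 (SE, adjusted p = 0.00651).

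Pre-ribosomal RNA processing factors behaved likewise. WDR43 read 13.18, 13.27 and 13.04 on the KMS12-BM DMSO arrays and 12.46, 12.43 and 12.42 after TG003, against 12.68, 12.61 and 12.52 and 12.78, 12.74 and 12.67 in JJN3. WDR43, a component of the small-subunit processome, fell on all 3 KMS12-BM arrays and its JJN3 groups overlapped. The difference was 0.85 ± 0.10 (SE, adjusted p = 0.000399). UTP20, another processome component, differed by 0.88 ± 0.16 (SE, adjusted p = 0.0051), from -0.65 in KMS12-BM and 0.23 in JJN3. UTP4 moved in opposite directions, -0.28 in KMS12-BM and 0.23 in JJN3, with both responses called and a difference of 0.51 ± 0.09 (SE, adjusted p = 0.00545).

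The remaining called members also had a KMS12-BM response below their JJN3 response. DDX21, a nucleolar RNA helicase, had responses of -0.79 in KMS12-BM and -0.04 in JJN3 and a difference of 0.75 ± 0.16 (SE, adjusted p = 0.012). NOP2, a methyltransferase of large-subunit ribosomal RNA, differed chiefly through JJN3, where it rose by 0.58 ± 0.09 against -0.16 ± 0.09 in KMS12-BM (difference 0.75 ± 0.12 (SE, adjusted p = 0.00274)). RRS1, MRTO4 and GTPBP4, assembly factors of the large subunit, differed by 1.12, 0.61 and 0.38, and each lost its call without 8 or more of the 12 arrays in turn. MYC itself had responses of -0.56 in KMS12-BM and -0.14 in JJN3, and its difference of 0.42 ± 0.17 (SE, adjusted p = 0.223) missed the threshold. NPM1, the most abundant nucleolar phosphoprotein, differed by -0.01 ± 0.12 (SE, adjusted p = 0.989). Of 35 cytosolic ribosomal protein genes, 2 differed (5.71%), RPS15 and RPL18, both more negative in JJN3 (-0.47 and -0.37), and both lost their call without 5 or more single arrays.

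**Figure D3:**
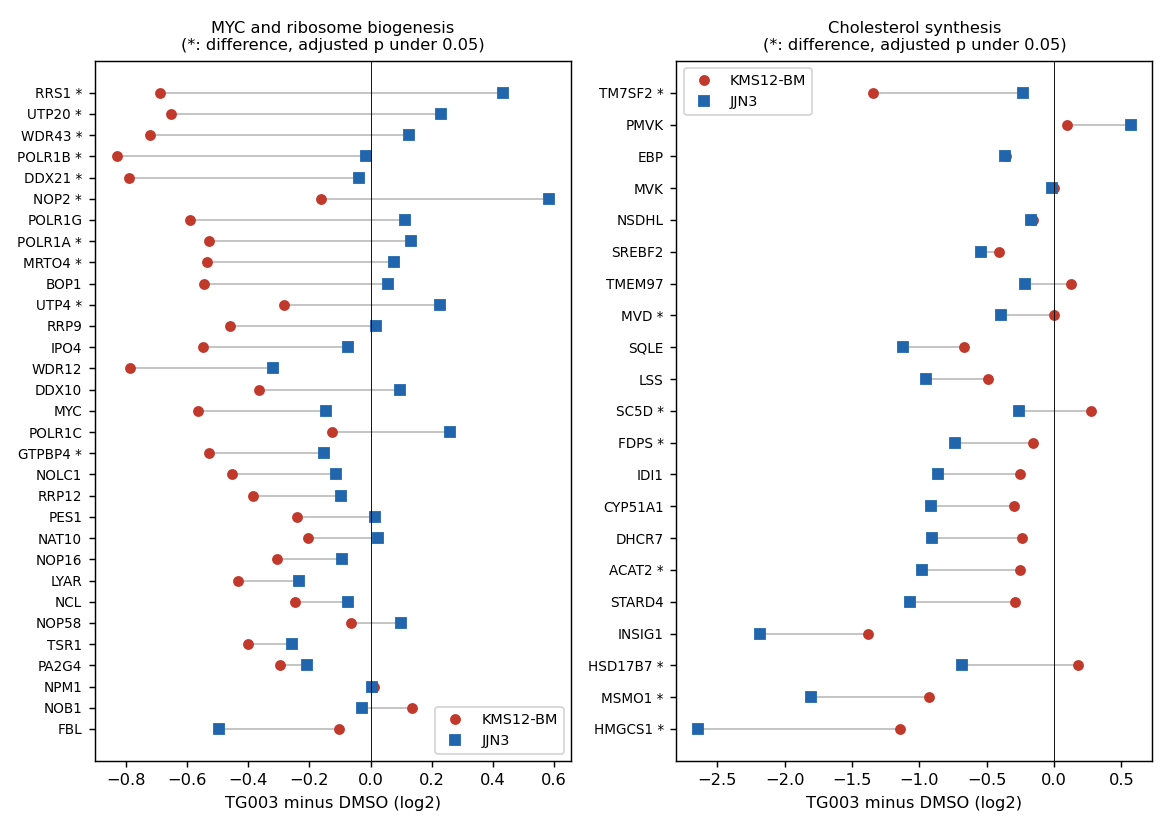
TG003 minus DMSO (x axis, log2) in KMS12-BM (red circles) and JJN3 (blue squares) for the 31 genes of the MYC and ribosome biogenesis list (left) and the 21 cholesterol synthesis genes (right), each pair joined by a line, with an asterisk where the difference was called. On the left most red circles lie left of the squares; on the right most blue squares do, with TM7SF2 the called exception.

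Cholesterol synthesis genes fell more widely in JJN3. Of 21 measured members 15 fell and none rose in JJN3, while 8 fell and 1 rose in KMS12-BM. The difference was called at 8 (38.1%), 7 of them more negative in JJN3, with a median of -0.53. Direction held under each scaling, with 7 more negative members after median centring and 4 after quantile normalization. Single-array removals left 5 to 11, with 11 called without KMS12-BM DMSO array 2.

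HMGCS1, at the entry of the pathway, had the largest difference of the list. HMGCS1 read 11.39, 12.41 and 11.71 on the KMS12-BM DMSO arrays and 10.81, 10.59 and 10.68 after TG003, against 12.55, 12.99 and 12.99 and 10.23, 10.24 and 10.12 in JJN3. It makes HMG-CoA and was lower after TG003 on every array of both lines, and its 3 JJN3 TG003 arrays were the lowest of the 12. It fell 6.24-fold in JJN3 and 2.21-fold in KMS12-BM, and the difference was -1.50 ± 0.27 (SE, adjusted p = 0.00524). ACAT2, which joins 2 acetyl-CoA molecules, fell by 0.98 ± 0.09 in JJN3 with a KMS12-BM response of -0.25 ± 0.09, a difference of -0.73 ± 0.13 (SE, adjusted p = 0.00545). FDPS, the farnesyl diphosphate synthase, differed by -0.58 ± 0.13 (SE, adjusted p = 0.015), and MVD, the mevalonate diphosphate decarboxylase, by -0.40 ± 0.09 (SE, adjusted p = 0.019), although MVD lay below the background reference in DMSO in both lines.

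Late enzymes of the pathway followed. MSMO1 read 10.12, 10.58 and 10.55 on the KMS12-BM DMSO arrays and 9.66, 9.11 and 9.71 after TG003, against 12.39, 12.56 and 12.38 and 10.65, 10.59 and 10.67 in JJN3. MSMO1, a sterol C4-methyl oxidase, fell without overlap in both lines, by 3.48-fold in JJN3 and 1.9-fold in KMS12-BM. The difference was -0.87 ± 0.20 (SE, adjusted p = 0.0232) and lost its call without JJN3 DMSO array 2, KMS12-BM DMSO array 1 or KMS12-BM TG003 array 1 or 3. HSD17B7, a sterol ketoreductase, and SC5D, a sterol desaturase, had responses of opposite sign, 0.18 in KMS12-BM and -0.68 in JJN3 for the former and 0.28 in KMS12-BM and -0.26 in JJN3 for the latter. Their differences were -0.86 ± 0.15 (SE, adjusted p = 0.00342) and -0.53 ± 0.12 (SE, adjusted p = 0.0185). SC5D lost its call without KMS12-BM TG003 array 2 or KMS12-BM DMSO array 1, and MVD without JJN3 DMSO array 3. TM7SF2, a sterol reductase, went the other way. TM7SF2 read 10.92, 10.77 and 10.86 on the KMS12-BM DMSO arrays and 9.56, 9.22 and 9.72 after TG003, against 7.17, 6.91 and 6.95 and 6.78, 6.67 and 6.90 in JJN3. It fell in KMS12-BM, where it was abundant, and was close to the background reference in JJN3 throughout, with a difference of 1.12 ± 0.19 (SE, adjusted p = 0.00278). INSIG1, the sterol-sensing inhibitor of the pathway, fell in both lines, -1.38 in KMS12-BM and -2.18 in JJN3, and its difference of -0.80 ± 0.32 (SE, adjusted p = 0.199) missed the threshold.

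The promoters of these genes are shown because the members moved together in JJN3. The 250 bases before the annotated start were searched for 4 motifs on both strands. The CCAAT box, bound by NF-Y and read as CCAAT or ATTGG, was found in 16 of the 19 cholesterol promoters with a window (84.2%). It was in 7 of 7 whose response differed, which include TM7SF2 with its opposite direction and leave out ACAT2, which had no window. Of all 15247 measured genes with a window, expressed or not, 34.4% held it. The core TCACNCCA of a sterol response element was found in 3 of the 19 (15.8%) and in 2.96% of all. The CCAAT box was not particular to the cholesterol genes. It was in 26 of 34 promoters of the endoplasmic reticulum list described below (76.5%). There it was in 4 of the 5 members that differed, all of them more positive in JJN3. Among the ribosome biogenesis promoters 8 of 25 held a CCAAT box (32.0%) and 5 of 25 the E-box CACGTG that MYC binds (20.0%), against 7.54% of all for the latter. Of the glycolysis and hypoxia promoters 11 of 32 held a CCAAT box (34.4%) and 6 of 32 the same E-box (18.8%). A match is a description of these letters and shows no binding. The promoters of 3 members from RefSeq, build GRCh38.p14, are printed 5′ to 3′ along the gene with CCAAT boxes of either strand in capitals: HMGCS1 at chr5:43313413-43313662 on the minus strand, MSMO1 at chr4:165327419-165327668 on the plus strand and FDPS at chr1:155308616-155308865 on the plus strand.
HMGCS1: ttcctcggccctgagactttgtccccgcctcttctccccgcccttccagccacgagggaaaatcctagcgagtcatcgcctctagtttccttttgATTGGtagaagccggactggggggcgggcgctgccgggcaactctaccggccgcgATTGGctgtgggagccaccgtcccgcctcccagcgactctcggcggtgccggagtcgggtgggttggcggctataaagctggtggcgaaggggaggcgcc
MSMO1: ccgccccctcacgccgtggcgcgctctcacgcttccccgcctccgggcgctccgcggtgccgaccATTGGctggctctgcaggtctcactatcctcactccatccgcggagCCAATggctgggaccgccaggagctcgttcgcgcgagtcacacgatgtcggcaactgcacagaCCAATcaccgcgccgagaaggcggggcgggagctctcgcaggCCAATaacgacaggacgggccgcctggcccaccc
FDPS: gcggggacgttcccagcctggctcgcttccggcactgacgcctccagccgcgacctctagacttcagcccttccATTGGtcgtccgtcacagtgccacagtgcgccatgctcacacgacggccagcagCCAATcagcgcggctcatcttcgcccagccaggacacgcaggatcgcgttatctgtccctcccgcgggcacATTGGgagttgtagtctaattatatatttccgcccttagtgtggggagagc
HMGCS1 held 2 such boxes, MSMO1 4 and FDPS 3.

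In the list of endoplasmic reticulum chaperones and unfolded protein response genes, 5 of 38 members had a more negative response in KMS12-BM than in JJN3. In KMS12-BM 18 of the 38 fell and 2 rose, and in JJN3 12 fell and none rose. The difference was called at 5 (13.2%), all in the positive direction, against 9.71% of all genes above the background reference. No result about the list is read from this count. The list median was 0.05, close to that of all genes. With each array centred on its median 1 member remained called, and single-array removals left 1 to 6. It was 1 without JJN3 DMSO array 2 or KMS12-BM DMSO array 1, and 2 without JJN3 TG003 array 2 or KMS12-BM TG003 array 3. It was 3 without JJN3 DMSO array 3, JJN3 TG003 array 1, or array 2 of either KMS12-BM group. Without JJN3 DMSO array 1 there were 3 positive calls and 1 negative one.

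HSPA5, or BiP, is the main chaperone of the compartment. HSPA5 read 16.18, 16.14 and 15.97 on the KMS12-BM DMSO arrays and 14.92, 14.08 and 14.24 after TG003, against 15.13, 15.01 and 15.09 and 14.45, 14.28 and 14.20 in JJN3. It fell without overlap in both lines, 3.21-fold in KMS12-BM and 1.7-fold in JJN3, and its first KMS12-BM TG003 array was higher than the other 2. The difference was 0.91 ± 0.23 (SE, adjusted p = 0.0354) and lost its call without any of 9 arrays. HYOU1, a chaperone of the HSP70 family, differed by 0.74 ± 0.14 (SE, adjusted p = 0.00625), from -0.98 in KMS12-BM and -0.25 in JJN3, and kept its call without each array in turn. HERPUD1, a degradation factor of the membrane, and CALR, a lectin chaperone that binds calcium, differed by 0.73 and 0.59 and lost their calls without 7 and 8 arrays. SEC61A1, the translocation channel, had responses of -0.38 in KMS12-BM and 0.14 in JJN3 and a difference of 0.52 ± 0.12 (SE, adjusted p = 0.0189), which lost its call without JJN3 DMSO array 2 or KMS12-BM DMSO array 1. XBP1, the transcription factor of the unfolded protein response, fell in KMS12-BM (-0.95 ± 0.19), and its difference of 0.66 ± 0.27 (SE, adjusted p = 0.215) missed the threshold.

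The ER stress response element, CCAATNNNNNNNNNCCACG on either strand, was found in 6 of the 34 promoters of this list with a window (17.6%) and in 17 of 15247 in all (0.111%). It overlaps the CCAAT box, which 26 of the 34 held. Among the members that differed it was present in HSPA5 and CALR. Their windows, again from RefSeq on GRCh38.p14 and with the element in capitals, are at chr9:125241344-125241593 on the minus strand and chr19:12938359-12938608 on the plus strand.
HSPA5: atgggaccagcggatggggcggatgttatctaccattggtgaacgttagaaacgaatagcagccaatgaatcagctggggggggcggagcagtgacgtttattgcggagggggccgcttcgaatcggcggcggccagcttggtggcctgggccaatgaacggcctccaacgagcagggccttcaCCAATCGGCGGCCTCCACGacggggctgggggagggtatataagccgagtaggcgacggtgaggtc
CALR: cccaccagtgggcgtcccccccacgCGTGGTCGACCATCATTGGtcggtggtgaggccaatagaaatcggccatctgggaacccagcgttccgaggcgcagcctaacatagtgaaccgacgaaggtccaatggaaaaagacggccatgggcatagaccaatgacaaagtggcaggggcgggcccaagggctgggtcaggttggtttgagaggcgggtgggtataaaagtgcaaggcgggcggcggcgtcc
In HSPA5 the element reads along the gene, and in CALR on the opposite strand.

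Genes of glycolysis and the hypoxia response fell more often than they rose in both lines, and 7 had a more negative response in JJN3. Of 36 members 26 fell in JJN3 and 15 in KMS12-BM, and none rose in either. The difference was called at 7 (19.4%), all negative, with a list median of -0.18. Single-array removals left 6 to 11 negative calls and up to 2 positive ones, with 11 called without JJN3 DMSO array 1. Median centring left 6 negative calls, and quantile normalization gave 8 negative and 3 positive ones. With only genes above the background reference in both lines tested, 4 were called, all negative. ALDOC read 9.38, 9.41 and 9.34 on the KMS12-BM DMSO arrays and 8.97, 8.94 and 9.03 after TG003, against 10.85, 10.997 and 11.39 and 9.37, 9.51 and 9.69 in JJN3. ALDOC, the brain-type aldolase, fell 2.94-fold in JJN3, and its TG003 arrays lay below DMSO in KMS12-BM too, where the response of -0.40 ± 0.14 missed the threshold (adjusted p = 0.0696). The difference was -1.16 ± 0.20 (SE, adjusted p = 0.00315).

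The other called members were targets of hypoxia-inducible factor or regulators of glycolysis. NDRG1 read 5.71, 5.53 and 5.75 on the KMS12-BM DMSO arrays and 5.75, 5.84 and 5.90 after TG003, against 12.93, 12.96 and 13.32 and 11.74, 12.23 and 12.08 in JJN3. NDRG1, a stress-responsive target of that factor, fell in JJN3 and was below the background reference in KMS12-BM, with a difference of -1.22 ± 0.19 (SE, adjusted p = 0.00209). AK4, a mitochondrial adenylate kinase, differed by -0.86 ± 0.16 (SE, adjusted p = 0.00466) and PFKFB4, which makes an activator of phosphofructokinase, by -0.82 ± 0.19 (SE, adjusted p = 0.0197). PFKFB3, the sister enzyme of PFKFB4, differed by -0.55, VEGFA, the vascular growth factor, by -0.65 and EGLN3, an oxygen-sensing hydroxylase, by -0.42. VEGFA lost its call without any of 8 arrays, and EGLN3 was below the reference in every group. In DMSO, AK4, PFKFB3 and PFKFB4 were above the reference in JJN3 alone. GBE1, the glycogen branching enzyme, is not on the list but ranked among the 15 most negative differences. GBE1 read 7.26, 7.25 and 6.83 on the KMS12-BM DMSO arrays and 7.20, 7.24 and 6.98 after TG003, against 10.44, 11.14 and 10.98 and 8.89, 9.27 and 8.79 in JJN3. It fell 3.65-fold in JJN3, and its KMS12-BM groups overlapped. The difference was -1.90 ± 0.24 (SE, adjusted p = 0.000427).

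Chemokines that JJN3 expressed were among the largest losses. CCL2 read 5.24, 4.95 and 5.01 on the KMS12-BM DMSO arrays and 5.11, 5.08 and 4.69 after TG003, against 10.68, 9.52 and 10.54 and 7.07, 6.59 and 6.67 in JJN3. CCL2, which attracts monocytes, fell at least 9.91-fold in JJN3, to just under the background reference, and was below it on every KMS12-BM array. The difference was -3.37 ± 0.39 (SE, adjusted p = 0.000222), the most negative of any gene that met the naming rule. CCL3 read 5.31, 5.84 and 6.12 on the KMS12-BM DMSO arrays and 5.03, 5.21 and 4.89 after TG003, against 9.09, 9.31 and 10.23 and 6.06, 6.08 and 6.28 in JJN3. CCL3, a ligand of CCR1, fell without overlap in JJN3 and lay under the reference in KMS12-BM, with a difference of -2.69 ± 0.40 (SE, adjusted p = 0.00143). CCL3 has close copies in the genome, and a probe set may read them too.

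The receptor CCR1 also fell in JJN3. CCR1 read 3.65, 3.36 and 3.41 on the KMS12-BM DMSO arrays and 3.84, 3.36 and 3.17 after TG003, against 11.32, 11.21 and 11.41 and 9.80, 9.89 and 8.65 in JJN3. The JJN3 TG003 arrays lay below DMSO, the third furthest. CCR1 fell 3.64-fold there, and the difference was -1.85 ± 0.35 (SE, adjusted p = 0.00617). In the list of 23 chemokines, receptors and RGS genes the difference was called at 6 (26.1%), 5 of them negative, with a median of -0.05. Of the 23, 11 lay above the background reference in at least 1 group. The share called was 4.57% over all genes and 9.71% over those above the reference. CCL4 differed by -1.28 ± 0.22 (SE, adjusted p = 0.00327), at levels below the reference in every group. RGS2, which dampens G-protein signals, differed by -0.89 ± 0.21 (SE, adjusted p = 0.0233) and CXCR3, a receptor for interferon-induced chemokines, by 0.92 ± 0.22 (SE, adjusted p = 0.025), but CXCR3 was also below the reference in every group. RGS2 and CXCR3 lost their calls without 6 and 5 arrays. Of the members above the reference in both lines none differed.

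Genes tied to MAF, the factor that JJN3 overexpresses, split in direction. MAF had responses of -0.21 in KMS12-BM and 0.36 in JJN3, with a difference of 0.57 ± 0.26 (SE, adjusted p = 0.283). Of 18 signature genes, 12 of them above the reference, 4 differed (22.2%), 2 each way, against 9.71% of all genes above it. KCNN3, a calcium-activated potassium channel, fell 3.66-fold in JJN3 and differed by -1.69 ± 0.24 (SE, adjusted p = 0.00111), and CCR1 is the other negative member. DUSP6 read 4.81, 4.38 and 4.62 on the KMS12-BM DMSO arrays and 4.23, 4.33 and 4.32 after TG003, against 10.09, 10.25 and 10.21 and 10.68, 11.63 and 10.98 in JJN3. DUSP6, the phosphatase that switches off ERK, rose on every JJN3 array and was below the reference in KMS12-BM, with a difference of 1.23 ± 0.26 (SE, adjusted p = 0.0136). ITGB7 read 9.72, 9.25 and 9.82 on the KMS12-BM DMSO arrays and 8.03, 7.37 and 8.01 after TG003, against 13.86, 13.79 and 14.15 and 13.36, 13.32 and 13.18 in JJN3. ITGB7, an integrin chain, fell in both lines, 3.48-fold in KMS12-BM and 1.57-fold in JJN3. The difference was 1.15 ± 0.26 (SE, adjusted p = 0.0209) and lost its call without JJN3 DMSO array 2 or KMS12-BM DMSO array 1 or 3. DUSP5, a nuclear ERK phosphatase, fell in both lines, -0.75 in KMS12-BM and -1.76 in JJN3, with a difference of -1.01 ± 0.27 (SE, adjusted p = 0.0442) that 10 of 12 removals ended.

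Some of the largest positive differences came from genes that fell in KMS12-BM and were below the reference in JJN3. CD27 read 14.32, 14.12 and 14.14 on the KMS12-BM DMSO arrays and 12.43, 11.78 and 12.26 after TG003, against 5.45, 5.48 and 5.34 and 5.26, 5.61 and 5.42 in JJN3. CD27, a TNF receptor of memory B cells and plasma cells, fell 4.1-fold in KMS12-BM without overlap and was below the reference in JJN3. The difference was 2.04 ± 0.21 (SE, adjusted p = 9.54e-05). BTK, the kinase below the B cell receptor, fell 2.22-fold and differed by 1.23 ± 0.22 (SE, adjusted p = 0.00423). BLNK, the adaptor that BTK acts with, fell 1.83-fold and differed by 0.78 ± 0.17 (SE, adjusted p = 0.0138). Both were below the reference in JJN3, and they were the 2 called members of 31 B cell and HLA class II genes (6.45%), of which 4 fell in KMS12-BM and 8 in JJN3.

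Other receptors and adaptors took the same form. SLA2 read 9.72, 9.14 and 8.83 on the KMS12-BM DMSO arrays and 7.10, 6.65 and 6.64 after TG003, against 4.33, 4.35 and 4.39 and 4.50, 4.46 and 4.53 in JJN3. SLA2, an adaptor that restrains antigen receptor signalling in T cells, had the most positive difference under the naming rule, 2.58 ± 0.24 (SE, adjusted p = 4.78e-05). It fell at least 4.88-fold in KMS12-BM and was below the reference in JJN3. CSF2RB read 9.78, 9.89 and 9.89 on the KMS12-BM DMSO arrays and 7.93, 7.74 and 8.03 after TG003, against 6.18, 6.24 and 6.29 and 5.91, 5.97 and 6.13 in JJN3. CSF2RB, the shared chain of the receptors for IL-3, IL-5 and GM-CSF, fell 3.87-fold in KMS12-BM with tight replicates, a difference of 1.72 ± 0.12 (SE, adjusted p = 6.59e-06). HES1 read 10.72, 11.14 and 10.95 on the KMS12-BM DMSO arrays and 9.10, 8.92 and 9.03 after TG003, against 5.21, 5.13 and 5.36 and 5.24, 5.26 and 5.53 in JJN3. HES1, a repressor that Notch signalling induces, fell 3.78-fold without overlap, a difference of 2.03 ± 0.18 (SE, adjusted p = 4.78e-05). CD300A, an inhibitory receptor, and P2RX1, an ATP-gated channel, differed by 1.42 and 1.65, both above the reference in KMS12-BM alone.

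PDE3B started at about the same level in both lines. PDE3B read 10.04, 10.04 and 9.74 on the KMS12-BM DMSO arrays and 8.51, 8.18 and 8.30 after TG003, against 9.71, 9.93 and 10.04 and 9.84, 9.79 and 9.76 in JJN3. PDE3B, which breaks down cyclic AMP, fell 3.06-fold in KMS12-BM, where no TG003 array reached a DMSO array. In JJN3 the groups overlapped, at a response of -0.10 ± 0.10. The difference was 1.52 ± 0.14 (SE, adjusted p = 4.78e-05), and it held without each array in turn. ADA2, a secreted adenosine deaminase, also started level in the lines, at 7.05 and 7.02, close to the background reference. Its difference was 1.60 ± 0.39 (SE, adjusted p = 0.0262), and 6 of 12 removals ended the call.

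Nearly all called responses on the plasma cell identity list were falls. Of 26 members 12 fell and none rose in KMS12-BM, and 11 fell and 1 rose in JJN3. Among all genes above the background reference 14.4% fell in KMS12-BM and 12% in JJN3. The difference was called at 3 of the 26 (11.5%), near the 9.71% of those genes, with a median of 0.14. No result about the list is read from that count. TNFRSF17, or BCMA, a survival receptor of plasma cells, fell in both lines, with responses of -1.70 ± 0.26 in KMS12-BM and -2.09 ± 0.26 in JJN3, and its difference of -0.39 ± 0.37 (SE, adjusted p = 0.686) missed the threshold. Its JJN3 TG003 mean lay below the reference, so the JJN3 fall was at least 3.5-fold. IRF4, the factor myeloma cells depend on, fell with responses of -0.99 ± 0.15 and -0.78 ± 0.15, a difference of 0.21 ± 0.21 (SE, adjusted p = 0.714). PRDM1, or BLIMP1, the repressor that sets the plasma cell programme, fell in KMS12-BM (-0.91 ± 0.15), and its difference was 0.75 ± 0.22 (SE, adjusted p = 0.0628). Besides CD27 the called members were CD28, a costimulatory receptor that was just above the reference in JJN3 in DMSO and differed by -1.05 ± 0.22 (SE, adjusted p = 0.0113), and the integrin ITGA8, which differed by -0.64 at levels below the reference and lost its call without any of 6 arrays.

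The remaining large positive differences were spread over unrelated functions. SEPTIN3 and SEPTIN1, cytoskeletal GTPases, fell 5.58-fold and 3.42-fold in KMS12-BM and differed by 1.99 and 1.35. ACY3, an aminoacylase, TMT1B, a methyltransferase, and ACTL8, an actin-like protein, differed by 1.84, 1.96 and 1.75. RNA5SP157, a 5S ribosomal RNA pseudogene with many near-identical copies, differed by 2.20, and its source is uncertain. EFNB2 read 4.64, 4.75 and 4.87 on the KMS12-BM DMSO arrays and 4.94, 4.73 and 4.78 after TG003, against 8.66, 8.55 and 8.67 and 9.96, 10.14 and 10.03 in JJN3. EFNB2, the ephrin ligand of EPHB4, was the single one of the 15 with a called rise in JJN3. It rose 2.67-fold there and was under the reference in KMS12-BM, a difference of 1.35 ± 0.17 (SE, adjusted p = 0.000471). CD68, a lysosomal glycoprotein that is on the myeloid marker list, fell at least 2.17-fold in KMS12-BM, from 8.10, and differed by 1.34 ± 0.24 (SE, adjusted p = 0.00464). The other 12 of the 13 measured genes on that list were below the reference in all 4 groups.

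The remaining large negative differences were spread over unrelated functions too. AMPD1 read 5.23, 5.33 and 5.34 on the KMS12-BM DMSO arrays and 4.86, 4.82 and 4.87 after TG003, against 9.94, 9.79 and 10.84 and 6.04, 6.36 and 6.92 in JJN3. AMPD1, an AMP deaminase known from muscle, fell at least 9.86-fold in JJN3, where 2 of its 3 TG003 arrays read below the reference. KMS12-BM lay below the reference throughout, and the difference was -3.30 ± 0.48 (SE, adjusted p = 0.00129). ADA read 7.01, 7.55 and 7.14 on the KMS12-BM DMSO arrays and 6.09, 6.12 and 6.21 after TG003, against 10.48, 10.68 and 10.70 and 7.85, 8.22 and 7.81 in JJN3. ADA, the intracellular adenosine deaminase, fell without overlap in both lines, 6.31-fold in JJN3 and at least 1.29-fold in KMS12-BM, where every TG003 array read below the reference. The fitted difference was -1.56 ± 0.22 (SE, adjusted p = 0.000824), and its size is limited by that floor.

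IGF1, a survival factor for myeloma cells, had the smallest p-value among the 15 most negative differences. IGF1 read 4.78, 4.91 and 4.95 on the KMS12-BM DMSO arrays and 4.87, 4.78 and 4.63 after TG003, against 11.01, 11.17 and 11.37 and 8.98, 9.02 and 9.41 in JJN3. It fell 4.13-fold in JJN3 without overlap and was below the reference in KMS12-BM, a difference of -1.92 ± 0.16 (SE, adjusted p = 3.48e-05). SLC7A2, a transporter of cationic amino acids, and SLC4A4, a sodium bicarbonate cotransporter, differed by -1.67 and -1.63. MORC1, a germline ATPase, and GPR15LG, a ligand of the receptor GPR15, differed by -1.62 and -1.92. TFRC, the transferrin receptor, expressed in both lines, differed by -1.04 ± 0.25 (SE, adjusted p = 0.0271), from -0.10 in KMS12-BM and -1.14 in JJN3, and 5 of 12 removals ended its call.

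Some entries on the negative side share sequence with relatives. HBBP1, a pseudogene of the beta-globin cluster, and HBD, the delta-globin gene, fell 8.67-fold and at least 1.42-fold in JJN3, HBD to below the reference, and differed by -2.98 ± 0.60 (SE, adjusted p = 0.00897) and -1.89 ± 0.35 (SE, adjusted p = 0.00544). HBD is on the erythroid list, whose other measured members lay below the reference in every group. AK4P3, a pseudogene of AK4, differed by -1.61, in the direction of AK4 itself (-0.86), and a probe set may read both.

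At 48 genes TG003 moved the lines in opposite directions with both responses called, and 34 of them rose in KMS12-BM and fell in JJN3. E2F7 differed most. E2F7 read 9.15, 8.70 and 8.59 on the KMS12-BM DMSO arrays and 9.70, 9.26 and 9.39 after TG003, against 8.42, 8.95 and 8.66 and 7.43, 7.75 and 7.31 in JJN3. E2F7, an atypical E2F that represses the genes of DNA replication, rose by 0.63 ± 0.18 in KMS12-BM and fell by 1.18 ± 0.18 in JJN3, from similar DMSO levels. The groups did not overlap in either line, and the difference was -1.82 ± 0.25 (SE, adjusted p = 0.000744).

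Its closest relative changed in the same way. E2F8 read 10.995, 10.95 and 10.97 on the KMS12-BM DMSO arrays and 11.64, 11.83 and 11.73 after TG003, against 11.31, 11.52 and 11.41 and 10.64, 11.01 and 10.93 in JJN3. E2F8 rose 1.69-fold in KMS12-BM and fell 1.47-fold in JJN3, a difference of -1.31 ± 0.19 (SE, adjusted p = 0.00129). E2F8 was looked up after E2F7 had been seen.

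TNFSF10 and GNPTAB showed the pattern with different functions. TNFSF10 read 5.56, 5.64 and 5.31 on the KMS12-BM DMSO arrays and 6.26, 6.34 and 6.18 after TG003, against 7.61, 7.84 and 7.82 and 7.32, 6.92 and 6.93 in JJN3. TNFSF10, the death ligand TRAIL, had higher values after TG003 in KMS12-BM, a called response on arrays that all stayed below the reference, and fell 1.62-fold in JJN3. The difference was -1.46 ± 0.17 (SE, adjusted p = 0.000274). GNPTAB read 10.72, 10.81 and 10.63 on the KMS12-BM DMSO arrays and 10.95, 11.43 and 11.08 after TG003, against 9.53, 9.45 and 9.66 and 8.33, 8.46 and 8.50 in JJN3. GNPTAB, the Golgi enzyme that starts the mannose 6-phosphate tag of lysosomal proteins, rose slightly in KMS12-BM and fell 2.17-fold in JJN3. The difference was -1.55 ± 0.14 (SE, adjusted p = 4.78e-05).

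EEIG2, FOXD2-AS1, a long non-coding RNA, and TRGV5, a T cell receptor gamma segment, completed the 6 largest. They differed by -1.58, -1.60 and -1.36, and FOXD2-AS1 and TRGV5 were below the reference in KMS12-BM. DRAM2, a lysosomal membrane protein of autophagy, had responses of 0.75 in KMS12-BM and -0.40 in JJN3 and a difference of -1.15 ± 0.15 (SE, adjusted p = 0.0007).

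**Figure D4:**
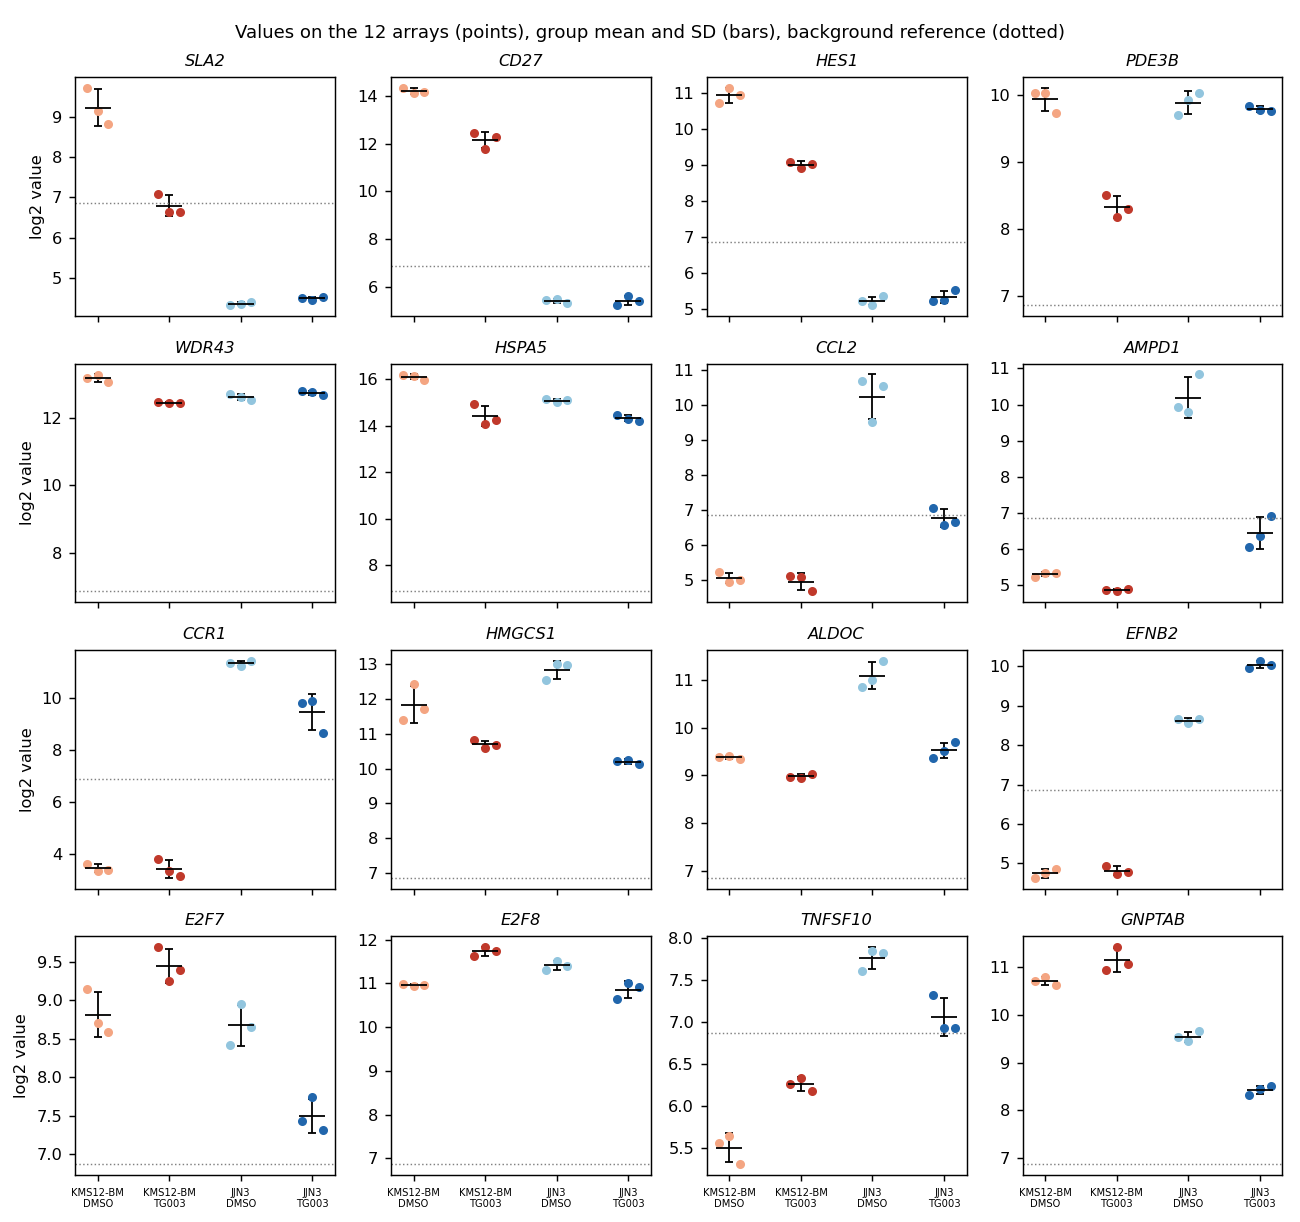
Log2 values (y axis) on the 12 arrays for 16 named genes, with KMS12-BM in orange and red and JJN3 in light and dark blue, DMSO left of TG003; bars are the group mean and SD (n = 3) and the dotted line is the background reference of 6.87. SLA2, CD27 and HES1 fell in KMS12-BM where JJN3 lay below the line, CCL2, AMPD1 and CCR1 fell in JJN3 where KMS12-BM lay below it, and E2F7, E2F8, TNFSF10 and GNPTAB moved in opposite directions.

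In each cell cycle list the share of members that differed was under the 9.71% of all genes above the reference. No result about these groups is read from the counts. Of 46 DNA replication genes 14 rose and 1 fell in KMS12-BM, while 1 rose and 3 fell in JJN3. The list median difference was -0.18, and 3 members differed (6.52%). They were MCM3, of the replicative helicase, at -0.72 ± 0.16 (SE, adjusted p = 0.0174), POLD3, of DNA polymerase delta, at -0.63, and RFC1, of the clamp loader, at -0.56, all more negative in JJN3. POLD3 and RFC1 lost their calls without 5 and 6 arrays. Of 43 mitosis genes 15 fell in KMS12-BM and 19 in JJN3, and 2 differed (4.65%). NUSAP1, a spindle protein, rose in KMS12-BM and fell in JJN3, a difference of -0.67 ± 0.12 (SE, adjusted p = 0.00498). BUB1, a checkpoint kinase, differed by 0.53 ± 0.14 (SE, adjusted p = 0.0446), and each of the 12 removals ended that call. Of 23 histone genes H2BC21 differed (-0.72), a call that ended without JJN3 DMSO array 3 or KMS12-BM DMSO array 1, and of 16 D cyclin and G1 genes none did. CCND2, the D cyclin of JJN3, had a difference of -0.50 ± 0.17 (SE, adjusted p = 0.133) and CCND1, that of KMS12-BM, 0.15 ± 0.23 (SE, adjusted p = 0.812).

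In the stress and death lists 2.56% to 5.26% of members differed, against 4.57% of all genes and 9.71% of those above the reference. Of 22 p53 targets AEN, a nuclease, differed (0.79 ± 0.15 (SE, adjusted p = 0.00664)), and of 29 regulators of apoptosis BAK1, which opens the mitochondrial membrane, did (0.71 ± 0.13 (SE, adjusted p = 0.00641)). Both fell in KMS12-BM by their own test. Among 39 genes of the integrated stress response VLDLR was the called member (-0.42), below the reference in every group and no longer called without any of 10 arrays, and CTH, the cystathionine lyase, missed the threshold at -1.07 ± 0.32 (SE, adjusted p = 0.0763). Of 29 autophagy and lysosome genes WIPI1, which binds the forming autophagosome, differed (-0.81). Of 19 cytosolic heat shock proteins HSPA4L did (-0.87), and it was expressed in JJN3 alone. The WIPI1 call ended without any of 10 arrays.

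Inflammatory lists were mixed, with 16 of 26 NF-kB genes and 14 of 36 interferon genes above the reference. The share called was 4.57% over all genes and 9.71% over those above it. Of 26 NF-kB subunits and targets 4 differed (15.4%): CCL3 and CCL4, described above, CD83, a surface protein of activated lymphocytes, at -0.69 ± 0.13 (SE, adjusted p = 0.00762), and NFKBIZ, a nuclear inhibitor of the kappa B family, at 0.59 ± 0.15 (SE, adjusted p = 0.0359). NFKBIZ rose in JJN3, and 9 of 12 removals ended its difference. Of 36 interferon response genes 3 differed (8.33%), HERC5, IFI35 and IRF1, all more negative in JJN3 at -0.57, -0.54 and -0.47. HERC5, IFI35 and IRF1 lost their calls without 10, 7 and 4 arrays.

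The other lists held at most 2 called members each, too few to read as a result about a list. Of 27 MAPK feedback and immediate early genes, DUSP5 and DUSP6 differed (7.41%), as given above. Of 8 AHR targets CYP1A1, a xenobiotic-metabolising enzyme, differed (0.57), below the reference in every group and no longer called after median centring or without any of 5 arrays, of 16 elongation control genes SUPT5H did (0.45), and of 10 reference genes TFRC did. SUPT5H lost its call without any of 11 arrays. No member differed among 19 tRNA synthetases, 35 oxidative phosphorylation subunits, 28 proteasome subunits, 21 NRF2 and glutathione genes, 14 T and NK cell markers and 11 stromal markers. The member with the smallest p-value was IARS1 in the first (0.37 ± 0.15 (SE, adjusted p = 0.186)), SDHA in the second (-0.39), PSMA1 in the third (0.33) and TXNRD1 in the fourth (0.35). VIM, vimentin, on the stromal list, had a difference of 0.51 ± 0.15 (SE, adjusted p = 0.0762), and NFE2L2, on the AHR list, 0.19. HNRNPF, on the hnRNP list, had 0.29.

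**Figure D5:**
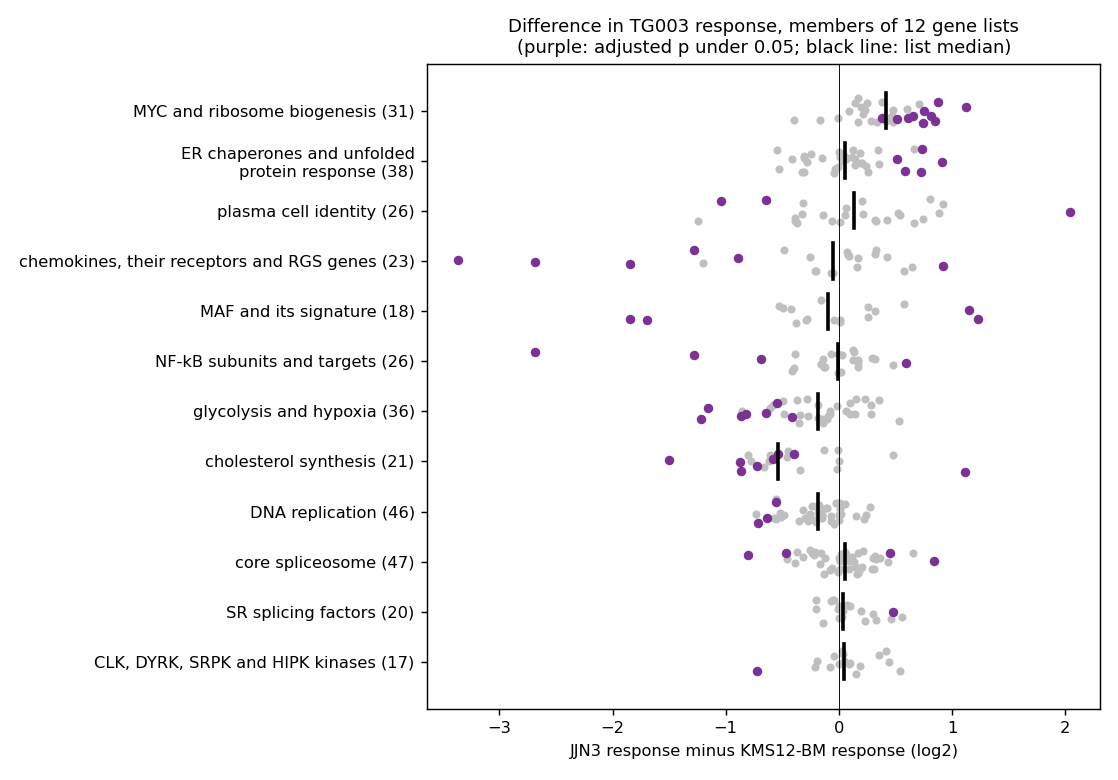
Difference in TG003 response between the lines (x axis, log2) for each measured member of 12 gene lists (y axis, number of members in parentheses), with called members in purple and the list median as a black line. The median lay at 0.42 for ribosome biogenesis and -0.53 for cholesterol synthesis, and between -0.18 and 0.14 for the other 10 lists.

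Gene classes outside the lists were counted as well. Zinc finger genes with ZNF symbols, a class looked at after the single-line results were known, rose at 120 of 452 and fell at 10 in KMS12-BM, and rose at 26 and fell at 11 in JJN3. The difference was called at 13 of 452 (2.88%), and 10 of the 13 were more negative in JJN3. Of the 268 above the reference 8 differed (2.99%), against 9.71% of all genes above it. Of 1840 long non-coding RNAs 33 differed (1.79%), 26 of them more negative in JJN3, and of 760 transcribed pseudogenes 24 did (3.16%), 20 of them more negative. Most genes of these classes lay below the background reference.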

How the data were processed

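Arrays of 2 human lines, 18 in all and 3 to a group, were analysed from the deposited series table. Its values are log2 RMA expression values made by the authors, per the submitters' processing notes, which name RMA with no version; the sources used here do not give a genome build or array software. The labels name poly A+ RNA in one field and total RNA in another. Of 70523 probe sets, 23781 carried 1 gene symbol in the platform annotation, 1543 several and 45199 were not listed; those with 1 symbol gave 22465 genes, 479 of which had several probe sets, and the brightest was kept. The depth measure is the number of arrays, which limits the precision.

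limma 3.58.1 in R 4.3.3 fitted 6 group means to the 18 arrays (12 residual degrees of freedom, 3.377 added by the moderated variance). The contrast was (JJN3 TG003 minus JJN3 DMSO) minus (KMS12-BM TG003 minus KMS12-BM DMSO), with Benjamini-Hochberg adjustment over 22465 genes and a threshold of 0.05. Folds are 2 to the power of the log2 value, so they are folds of RMA values, and ± is the SE of the fit with n = 3 arrays a group. On simulated differences of 1 and 0.5 (log2), 100 genes each among 22465, the same fit called 83% and 36%, with 8 unchanged genes called. The simulated noise was independent between arrays, unlike the real deviations, and far fewer genes were changed. These shares may therefore not hold for the real arrays. One KMS12-BM amiloride array (number 3) has a cell line field that reads JJN3; its title set its group, and leaving it out is an alternative.

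Array numbers follow the order of the serial code in the titles. Same-numbered deviations from the group means correlated at 0.160 to 0.423 between DMSO and TG003 in KMS12-BM and at 0.239 to 0.471 in JJN3, above 0.1 for every pair, so the numbers pair DMSO with TG003 within a line. The DMSO arrays of the lines also correlated by number, at 0.160 to 0.284, whereas the other 3 pairs of groups did not all pass 0.1. The pairing comes from the data, and the fit without the block stayed the reported one.

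Genes named were the 15 most positive and 15 most negative called differences above the background reference, the 6 largest with opposite calls, up to 3 called members of each of 37 lists (otherwise the member with the smallest p) and CLK1 to CLK4, CCND1, CCND2, MAF and ITGB7. The 37 lists hold 1024 genes, 880 of them measured. Further called members of 6 lists, and MYC, TNFRSF17, IRF4, PRDM1, XBP1, NPM1, INSIG1, E2F8, ADA, DRAM2 and ITGA8, IRF1, VLDLR and CYP1A1, were chosen after their values were seen. The members and lists were chosen with earlier results of these data known. Alternatives were a replicate block, other scalings, filters, probe set rules, variance models, array weights and leaving out each array. Promoter windows and sequences are from RefSeq (GRCh38.p14), matched by symbol for 15247 genes.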

Additional observations from a re-analysis of the deposited data

Results flagged for a closer look

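The results below stand here because the same contrast, TG003 against DMSO, gave a different effect in the 2 lines by the test of the difference itself (limma, adjusted p under 0.05, log2 scale). Across all genes this was so at 1026 of 22465.

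Among named genes above the background reference in both lines in DMSO, 3 ended below it in KMS12-BM after TG003 (ADA, ADA2 and AEN) and TM7SF2 did so in JJN3, so the size of these 4 differences is uncertain. More positive in JJN3 were differences of 2.20 for RNA5SP157, 1.60 for ADA2, 1.52 for PDE3B, 1.15 for ITGB7, 1.12 for TM7SF2, 1.12 for RRS1, 0.91 for HSPA5, 0.88 for UTP20, 0.85 for WDR43, 0.84 for U2AF2, 0.82 for POLR1B and 0.79 for AEN. Smaller ones were 0.75 for NOP2, 0.75 for DDX21, 0.74 for HYOU1, 0.73 for HERPUD1, 0.66 for POLR1A, 0.61 for MRTO4, 0.59 for CALR, 0.53 for BUB1, 0.52 for SEC61A1, 0.51 for UTP4, 0.48 for SRSF7 and 0.45 for SUPT5H. Smaller ones were 0.38 for GTPBP4. More negative in JJN3 were differences of -1.90 for GBE1, -1.82 for E2F7, -1.58 for EEIG2, -1.56 for ADA, -1.55 for GNPTAB, -1.50 for HMGCS1, -1.31 for E2F8, -1.16 for ALDOC, -1.15 for DRAM2, -1.04 for TFRC, -0.87 for MSMO1 and -0.86 for HSD17B7. Smaller ones were -0.81 for WIPI1, -0.80 for SNRPA, -0.73 for ACAT2, -0.72 for CLK3, -0.72 for MCM3, -0.72 for H2BC21, -0.67 for NUSAP1, -0.65 for VEGFA, -0.63 for POLD3, -0.58 for FDPS, -0.56 for RFC1 and -0.53 for SC5D. Smaller ones were -0.47 for SF3B5, -0.47 for RPS15 and -0.37 for RPL18.

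Named genes above it in KMS12-BM alone rest mainly on that line's response. Their JJN3 means lay below the reference, and the JJN3 response was called at SEPTIN3 alone (-0.49). More positive in JJN3 were differences of 2.58 for SLA2, 2.04 for CD27, 2.03 for HES1, 1.99 for SEPTIN3, 1.96 for TMT1B, 1.84 for ACY3, 1.75 for ACTL8, 1.72 for CSF2RB, 1.65 for P2RX1, 1.42 for CD300A, 1.35 for SEPTIN1 and 1.34 for CD68. Smaller ones were 1.23 for BTK, 0.78 for BLNK and 0.71 for BAK1.

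For named genes above it in JJN3 alone, the KMS12-BM means lay below the reference, and most differences rest on the JJN3 response. The KMS12-BM response was also called at TNFSF10 (0.76), FOXD2-AS1 (0.67), TRGV5 (0.58), DUSP5 (-0.75), PFKFB4 (-0.59) and IFI35 (-0.31), and enters those differences. More positive in JJN3 were differences of 1.35 for EFNB2, 1.23 for DUSP6 and 0.59 for NFKBIZ. More negative in JJN3 were differences of -3.37 for CCL2, -3.30 for AMPD1, -2.98 for HBBP1, -2.69 for CCL3, -1.92 for IGF1, -1.92 for GPR15LG, -1.89 for HBD, -1.85 for CCR1, -1.69 for KCNN3, -1.67 for SLC7A2, -1.63 for SLC4A4 and -1.62 for MORC1. Smaller ones were -1.61 for AK4P3, -1.60 for FOXD2-AS1, -1.46 for TNFSF10, -1.36 for TRGV5, -1.22 for NDRG1, -1.05 for CD28, -1.01 for DUSP5, -0.89 for RGS2, -0.87 for HSPA4L, -0.86 for AK4, -0.82 for PFKFB4 and -0.57 for HERC5. Smaller ones were -0.55 for PFKFB3 and -0.54 for IFI35.

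Named genes above it in neither line in DMSO are the least certain. More positive in JJN3 were differences of 0.92 for CXCR3 and 0.57 for CYP1A1. More negative in JJN3 were differences of -1.28 for CCL4, -0.69 for CD83, -0.64 for ITGA8, -0.47 for IRF1, -0.42 for EGLN3, -0.42 for VLDLR and -0.40 for MVD.

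In each case the part of the starting level in the difference was not tested.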

How the results depend on the processing

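The 1026 differing genes became 2262 with array weights, which counted JJN3 TG003 array 1 (weight 2.79) well above arrays 2 and 3 (0.412 and 0.380). They became 629 when only the 6750 genes above the background reference in both lines were tested, an alternative added after seeing the data, as fewer genes were tested. The replicate block gave 1368 and, among the 105 named differences, ended the call of SF3B5 alone; a block within each line, also added later, gave 1448 and ended the calls of SF3B5, RPL18, WIPI1, SUPT5H and VLDLR. Leaving out 1 array gave 677 to 992 for the difference, 2535 to 3432 for TG003 in KMS12-BM and 1465 to 2198 in JJN3. Array weights gave 3581 in JJN3. No called difference among the named genes changed sign under any alternative run, 70 of 105 kept their call without each of the 12 arrays in turn, and 35 lost it without at least 1. Median centring ended 18 of the 105 calls, among them HSPA5, HERPUD1, CALR, SEC61A1 and RRS1, and further quantile normalization ended 9, among them MSMO1, MVD and SC5D. Leaving out the KMS12-BM amiloride array with the conflicting cell line field gave 989. The causes of these shifts were not tested. Probe sets below the reference limit what can be read, since a fall there cannot be measured.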
